A study of Mus musculus with 6 samples.

Results

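Imprinted growth genes were followed in hind leg muscle of sedentary and treadmill-trained mice. Genes of this group were chosen by name from a list of 10, and 6 of them were found among the 16759 genes of the expression table, namely Igf2, Dlk1, Peg3, Mest, Cdkn1c and Grb10. The other 4 listed genes, the non-coding RNAs H19, Meg3, Rian and Mirg, were not analysed here. RNA was sequenced from 3 control (Con) mice and 3 exercise (EX) mice, with 1 library per mouse. All were male C57BL/6J mice, aged 8 weeks when they were assigned to groups. EX mice were trained on a treadmill during 6 weeks, with 5 sessions of 60 min per week and a distance of 22 km in all, whereas Con mice were not trained. Tissue of EX mice was taken 24 h after the final session. The paper describes transcardial perfusion with saline and the removal of fat between the muscles. It names only the EX group there, so the handling of Con mice is not stated. The sources do not say which muscles of the hind leg gave the small piece used for RNA. The defining genes of skeletal muscle fibres, Acta1, Ckm, Ttn and Myh4, were present at a summed level of 115729 to 121338 CPM (counts scaled to a common library size) in Con and 123464 to 130340 CPM in EX. Of these, Acta1 rose (log2 fold change 0.22, adjusted p = 3.4e-06 in edgeR), and Ckm, Ttn and Myh4 did not pass.

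A gene is imprinted when only the copy from 1 parent is expressed, as set by methylation laid down in the egg or the sperm. Many such genes regulate growth before and after birth, with paternally expressed genes often promoting growth and maternally expressed genes often restraining it. Igf2, Dlk1, Peg3 and Mest are expressed from the paternal copy, and Cdkn1c and, in most tissues outside the brain, Grb10 from the maternal copy. Several of them are abundant in embryonic muscle and decline after birth. In an inbred strain the parental copies carry the same sequence, so the values below are the sum over both copies.

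In EX muscle, Mest and Cdkn1c were higher than in Con muscle. Mest, which encodes an enzyme-like protein of the endoplasmic reticulum that has been linked to the expansion of fat tissue, rose 1.50-fold (95% interval 1.19 to 1.89). Cdkn1c, which encodes the cell cycle inhibitor p57 that acts when muscle precursors leave the cell cycle, rose 1.20-fold (95% interval 1.10 to 1.32). In bulk tissue, a change in the number of cells of a type and a change of RNA per cell cannot be told apart. Igf2, Peg3, Dlk1 and Grb10 did not pass the test. Thus 2 of the 5 members above the filter on low values passed, both upwards, while 17.9% of all 10883 genes tested passed in either direction and 9.11% passed upwards. The call of Mest was lost with DESeq2 and when Con replicate 2 or EX replicate 3 was left out. That of Cdkn1c was lost with limma on log2(TPM + 0.1). Each of these alternatives left 1 member past the threshold. The estimated log2 fold changes of these 5 members had a median of 0.14, against -0.000927 over all genes tested, and all 5 estimates were above 0, as were 5412 of the 10883. That of Grb10 was 0.00647, and it was negative in 7 of the 15 alternatives. With 5 genes, these shares are a description of the members only.

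Total counts were 13845362 to 15585048 in Con and 16080487 to 16240431 in EX. Con replicate 1 was the shallowest and differed most from the others of its group, with a chi-square of the counts of 3.44 and 4.19 per gene against Con replicates 2 and 3, whereas all other pairs within a group lay between 1.79 and 2.36. Levels are given as CPM, with TMM scaling so that libraries can be compared, and as FPKM, the authors' value per kilobase of transcript, which allows genes to be compared with each other. Differences were tested with edgeR's quasi-likelihood test over all genes whose mean reached 1 FPKM, and a gene passed with a Benjamini-Hochberg adjusted p-value under 0.05. All 6 members had whole counts in every library.

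Per length, Cdkn1c was the most abundant member, with 14.7 ± 0.744 (SD, n = 3) FPKM in Con and 16.9 ± 0.331 in EX. Its mean over the libraries lay at the 66.3 percentile of the genes tested. Igf2 with 9.46 ± 1.07 FPKM and Grb10 with 8.85 ± 0.219 FPKM (SD, n = 6) followed in the middle of the range, at the 52.1 and 50.0 percentiles (49.9954). These neighbours did not differ beyond their spread, since Igf2 was above Grb10 in 1 of 3 Con libraries and in 3 of 3 EX libraries. Peg3 with 3.76 ± 0.284 FPKM and Mest with 1.65 ± 0.352 FPKM lay lower, at the 26.1 and 8.06 percentiles. Dlk1, at 0.775 ± 0.282 FPKM, lay under the filter. Every other pair of neighbours in this order kept its order in 6 of 6 libraries.

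**Figure D1:**
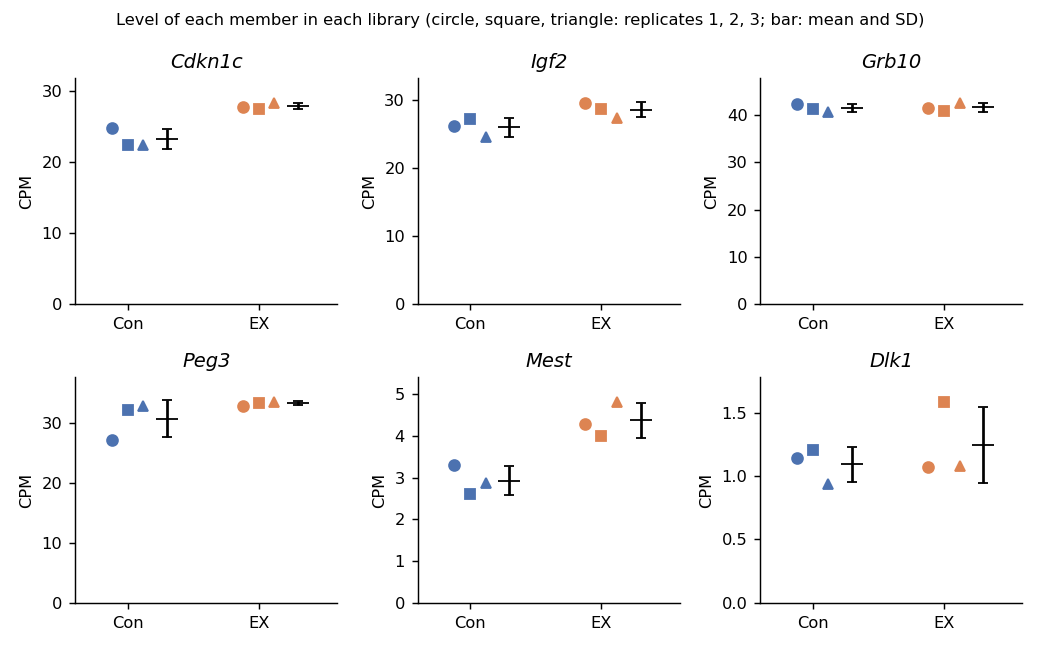
CPM of each member in each library, with the axes starting at 0; circles, squares and triangles are replicates 1, 2 and 3 of Con (blue) and EX (orange), and black bars show the mean and SD (n = 3). All EX values of Mest and Cdkn1c lay above all Con values, whereas the groups overlapped for Grb10 and Dlk1.

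The promoter windows of Mest and Igf2 are shown because Mest changed and because the transcript length implied for Igf2 did not overlap between the groups. They are RefSeq windows on GRCm38.p6, from 250 bases before to 50 bases after a transcription start, printed 5′ to 3′ on the strand of the gene. Of the 6 members, 5 had at least 1 window, and Cdkn1c had none. Capitals mark TGCCGC or, for the opposite strand, GCGGCA, the letters recognised in methylated DNA by ZFP57, a zinc finger protein that keeps imprints in the early embryo. These letters occurred in 4 of the 11 windows of the members, and in 11.6% of all 32851 windows of 300 bases. They were the only motif searched. Of these 4 windows, 2 are Mest windows that lie 3 bases apart and share the same copies, so the 4 stand for 3 separate stretches. The letters themselves hold a CG pair. The 4 windows hold 17, 17, 14 and 45 CG pairs, against a median of 7 over all windows. The share of 11.6% was not matched for CG pairs. Of the 3 windows of Mest, the one shown (chr6:30737800-30738099, + strand) holds the letters 2 times and 17 CG pairs.

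Mest: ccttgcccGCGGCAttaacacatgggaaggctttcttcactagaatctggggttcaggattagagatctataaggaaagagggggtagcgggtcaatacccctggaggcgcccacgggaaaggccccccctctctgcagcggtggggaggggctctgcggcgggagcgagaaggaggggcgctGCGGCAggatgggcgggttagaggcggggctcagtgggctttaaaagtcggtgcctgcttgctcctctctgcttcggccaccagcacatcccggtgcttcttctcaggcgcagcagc

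Igf2 has 4 windows on the minus strand of chromosome 7, in the order in which transcription passes them chr7:142666767-142667066, chr7:142661222-142661521, chr7:142658755-142659054 and chr7:142657447-142657746. They differ in CG pairs, with 2, 14, 24 and 7, where the median of all windows is 7. Only window 2 of these (chr7:142661222-142661521) holds the letters TGCCGC or their reverse complement, 1 time.

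Igf2 window 1: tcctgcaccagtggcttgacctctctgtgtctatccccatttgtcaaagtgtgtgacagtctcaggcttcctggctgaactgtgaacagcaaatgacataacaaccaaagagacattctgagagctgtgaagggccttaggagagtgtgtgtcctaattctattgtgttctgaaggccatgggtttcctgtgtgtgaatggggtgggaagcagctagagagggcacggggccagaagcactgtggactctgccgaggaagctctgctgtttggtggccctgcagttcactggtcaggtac

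Igf2 window 2: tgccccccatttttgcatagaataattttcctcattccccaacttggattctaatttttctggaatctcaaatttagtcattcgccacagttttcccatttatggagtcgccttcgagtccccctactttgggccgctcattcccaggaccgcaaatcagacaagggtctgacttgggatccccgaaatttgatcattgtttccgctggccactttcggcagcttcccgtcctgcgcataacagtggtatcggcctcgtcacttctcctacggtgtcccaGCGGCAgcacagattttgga

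Igf2 window 3: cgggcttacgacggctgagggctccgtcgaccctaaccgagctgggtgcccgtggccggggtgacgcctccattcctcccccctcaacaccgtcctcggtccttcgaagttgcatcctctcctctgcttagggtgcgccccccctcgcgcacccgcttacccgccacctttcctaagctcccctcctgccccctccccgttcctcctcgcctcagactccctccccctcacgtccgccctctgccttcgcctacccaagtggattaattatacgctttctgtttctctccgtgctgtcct

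Igf2 window 4: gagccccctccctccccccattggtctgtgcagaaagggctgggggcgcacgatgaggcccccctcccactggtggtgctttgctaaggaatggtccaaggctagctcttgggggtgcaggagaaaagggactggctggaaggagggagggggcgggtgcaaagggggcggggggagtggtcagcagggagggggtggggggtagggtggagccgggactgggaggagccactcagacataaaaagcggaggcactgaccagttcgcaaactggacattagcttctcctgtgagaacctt

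Among the paternally expressed members, Mest (gene 17294) had 46, 41 and 46 counts in Con replicates 1 to 3 and 68, 63 and 76 counts in EX replicates 1 to 3. In CPM these were 3.30, 2.61 and 2.88 in Con and 4.29, 4.01 and 4.83 in EX. Every EX library lay above every Con library. Mean levels were 2.93 ± 0.348 CPM in Con and 4.38 ± 0.414 CPM in EX (SD, n = 3). On the log2 scale Mest rose by 0.58 ± 0.16 (SE; adjusted p = 0.0116 in edgeR). The exact permutation test over the mice, two-sided, gave p = 0.1, the smallest p that 3 against 3 allow. The call was lost in some alternatives, where the adjusted p was 0.0803 with DESeq2, 0.0649 without Con replicate 2 and 0.0730 without EX replicate 3, with log2 fold changes of 0.58, 0.50 and 0.51. On log2(FPKM + 1), a scale that understates changes of low genes, the log2 fold change was 0.31.

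Markers of other cell types moved in the same comparison as Mest, and their counts stand against the 17.9% of all genes tested that passed in either direction, or, for markers under the filter, the 12% that passed in the fit without it. Of 6 adipocyte markers (Adipoq, Plin1, Cfd, Retn, Cidec and Lep), the 4 above the filter all rose, and the other 2 passed upwards in the fit without a filter. Their summed level was 14.0 to 15.3 CPM in Con and 34.7 to 39.1 CPM in EX, and none of them was at 0 throughout. Of 5 markers of regenerating fibres, Myog was above the filter and rose, 3 of the other 4 (Myh3, Myh8 and Mymk) passed upwards without the filter, and the summed level was 6.83 to 7.35 CPM in Con and 24.7 to 25.3 CPM in EX. Of 7 markers of fibroblasts and fibro-adipogenic progenitors, 0 of 6 tested passed, with sums of 632.9 to 672.1 CPM in Con and 618.7 to 636.3 CPM in EX. The part of these cells in the level of Mest was not tested.

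Mest overlaps Copg2, the gene of a coat protein subunit, in the RefSeq annotation of GRCm38.p6. Whether reads were counted by strand is not given in the sources used here, so reads from the shared stretch cannot be told apart. Copg2 had 16.9, 21.8 and 20.8 CPM in Con and 21.7, 22.7 and 26.0 CPM in EX, and its groups overlapped. Its change on the log2 scale was 0.24 (adjusted p = 0.0502 in edgeR), just outside the threshold, and it passed in 6 of the 15 alternatives, with an adjusted p down to 0.0286.

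Igf2 (gene 16002) encodes insulin-like growth factor 2, a secreted growth factor of the embryo and of muscle precursors. It had 364, 428 and 391 counts in Con and 469, 450 and 431 counts in EX, which were 26.1, 27.2 and 24.5 CPM and 29.6, 28.7 and 27.4 CPM. All EX values lay above all Con values, but the lowest EX value and the highest Con value were 27.4 and 27.2 CPM. The mean was 26.0 ± 1.36 CPM in Con and 28.5 ± 1.11 CPM in EX (SD, n = 3). The log2 fold change was 0.14 ± 0.06 (SE; adjusted p = 0.146 in edgeR; exact permutation p = 0.1), and its 95% interval, not corrected for the number of genes, ran from 0.01 (0.00513) to 0.27.

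In FPKM, Igf2 stood at 7.70, 9.69 and 8.73 in Con and at 10.7, 10.0 and 9.94 in EX, and the log2 fold change on log2(FPKM + 0.1) was 0.23 (adjusted p = 0.0954 with limma), above that on counts. The length of transcript that a count and its FPKM imply together (the count divided by the FPKM, given the library total) was therefore compared, a measure taken up after seeing the data. For Igf2 it was 3.41, 2.86 and 2.87 kb in Con and 2.72, 2.77 and 2.70 kb in EX. All EX libraries lay below all Con libraries (exact permutation p = 0.1), and Con replicate 1 lay far above the other 5. Among the 10425 genes with at least 1 FPKM in every library, the groups did not overlap in implied length for 7.70%, and 0.959% had a ratio of highest to lowest as large as that of Igf2, 1.27, where the median was 1.01. This ratio rested on Con replicate 1. Without it the ratio of Igf2 was 1.07, as for Mest, and 11.7% of the genes had one as large, although the Con values of 2.86 and 2.87 kb still lay above the highest EX value of 2.77 kb. For Cdkn1c, Grb10 and Peg3 this ratio was between 1.01 (1.00772) and 1.02, and for Mest it was 1.07. Dlk1 ranged from 1.22 to 2.41 kb, but its FPKM values are given to 2 decimals and rest on 25 counts or fewer. GENCODE lists 9 transcripts of Igf2 on GRCm38, from 0.376 to 4.72 kb, and which of them were present was not measured.

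**Figure D2:**
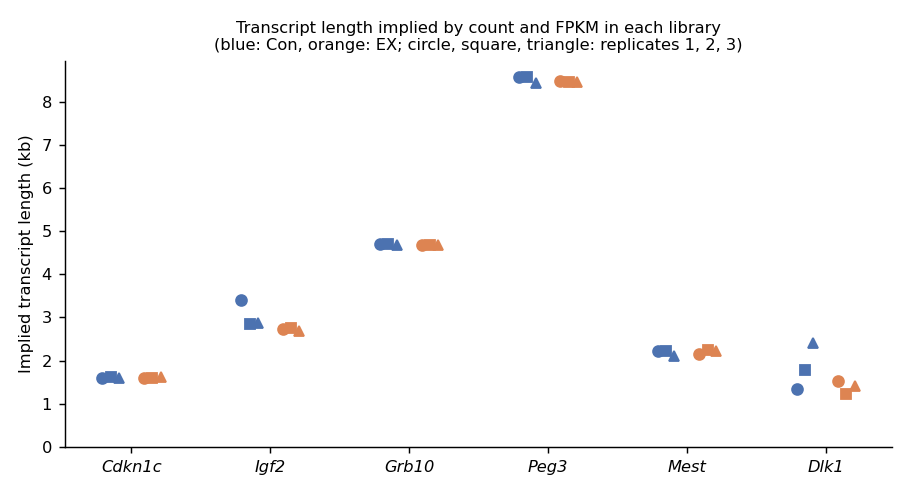
Transcript length in kb implied by the deposited count and FPKM of each member, for each library of Con (blue) and EX (orange); circles, squares and triangles are replicates 1, 2 and 3. The values of Igf2 lay between 2.70 and 2.77 kb in EX and between 2.86 and 3.41 kb in Con, while Cdkn1c and Grb10 varied by less than 1% between libraries.

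Peg3 (gene 18616) encodes a large zinc finger protein that is also a marker of muscle stem cells and interstitial progenitors, where it is known as PW1. It had 27.3, 32.2 and 33.0 CPM in Con and 33.0, 33.4 and 33.7 CPM in EX. The groups touched without overlapping, since Con replicate 3 had 32.9886 CPM and EX replicate 1 had 32.9891 CPM. The log2 fold change was 0.11 ± 0.07 (SE; adjusted p = 0.268 in edgeR), with a 95% interval from -0.02 to 0.24. Con replicate 1 held most of this difference, and without it the log2 fold change was 0.03 (adjusted p = 0.811). Of the satellite cell markers Pax7, Myf5, Myod1, Vcam1 and Cdh15, only Myod1 passed, where 17.9% of all genes tested passed in either direction. It rose from 42.3 CPM in Con to 57.3 CPM in EX, and the summed level of the 5 was 81.1 to 87.9 CPM in Con and 95.5 to 97.9 CPM in EX. Myod1 alone carried this sum upwards, since the other 4 markers had log2 fold changes from -0.10 to -0.02, none past the threshold, and summed to 40.4 to 42.8 CPM in Con and 38.5 to 40.1 CPM in EX, a split chosen after seeing the data.

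Dlk1 (gene 13386) encodes a membrane protein related to the Notch ligands, known as Pref-1 in fat cell precursors. It was close to the limit of detection, with 16, 19 and 15 counts in Con and 17, 25 and 17 counts in EX. The exact 95% Poisson interval, which covers counting error only, was 8.40 to 24.7 for 15 counts and 16.2 to 36.9 for 25 counts, so the highest and the lowest libraries were not separated at this depth. In the fit without a filter its log2 fold change was 0.18 ± 0.28 (SE; adjusted p = 0.741 in edgeR). The 95% interval from -0.38 to 0.75 still allowed a fold of 0.768 to 1.68. EX replicate 2 held the difference, and without it the log2 fold change was -0.02.

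Of the maternally expressed members, Cdkn1c (gene 12577) had 345, 352 and 357 counts in Con and 439, 431 and 446 counts in EX. In CPM it stood at 24.7, 22.4 and 22.4 in Con and at 27.7, 27.4 and 28.3 in EX. The EX libraries were close to each other and above all Con libraries. Mean levels were 23.2 ± 1.36 CPM in Con and 27.8 ± 0.453 CPM in EX (SD, n = 3). The log2 difference was 0.27 ± 0.07 (SE; adjusted p = 0.00432 in edgeR; exact permutation p = 0.1). Of the 991 genes that rose, 429 changed by more than Cdkn1c and 126 by more than Mest, and their median log2 fold change was 0.24. The direction of Cdkn1c held in all 15 alternatives and the threshold in 14, the exception being limma on log2(TPM + 0.1) with a log2 fold change of 0.17 (adjusted p = 0.0562). On that scale the median over all genes tested was -0.0912. The adipocyte and regenerating fibre markers given beside Mest were higher in EX in the same comparison, and their part in the level of Cdkn1c was not tested. Within its family, Cdkn1a (p21) rose as well (log2 fold change 0.27, adjusted p = 0.0452 in edgeR), but it passed in 2 of the 15 alternatives, and Cdkn1b (p27) had a log2 fold change of -0.01 (adjusted p = 0.890).

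Grb10 (gene 14783) encodes an adaptor that binds the insulin and IGF1 receptors and restrains their signalling. It had 42.3, 41.4 and 40.8 CPM in Con and 41.4, 40.9 and 42.7 CPM in EX, and the groups overlapped. The means were 41.5 ± 0.783 and 41.7 ± 0.918 CPM (SD, n = 3), which differed on the log2 scale by 0.01 (0.00647; adjusted p = 0.952 in edgeR). The 95% interval from -0.10 to 0.11 left room for a fold of 0.932 to 1.08. The sign was not stable, with values from -0.08 to 0.02 over the 15 alternatives and negative ones in 7 of them. On the FPKM and TPM scales the median over all genes tested was negative too, from -0.0912 to -0.0487. Grb14, the other adaptor of this family above the filter, rose from 14.2 ± 0.560 to 18.9 ± 1.34 CPM (log2 fold change 0.41, adjusted p = 5.0e-04 in edgeR) and passed in all 15 alternatives.

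Taken by CPM, the groups did not overlap for 4 of the 5 members above the filter, namely Mest, Cdkn1c, Igf2 and Peg3, where 33.7% of all genes tested did not overlap. Summed over the 6 members, the level was 123.9 to 126.6 CPM in Con and 135.5 to 137.4 CPM in EX. Within this sum, the mean of Cdkn1c went from 23.2 to 27.8 CPM and that of Mest from 2.93 to 4.38 CPM. The sum also holds Igf2, from 26.0 to 28.5 CPM, and Peg3, from 30.8 to 33.4 CPM, which did not pass.

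**Figure D3:**
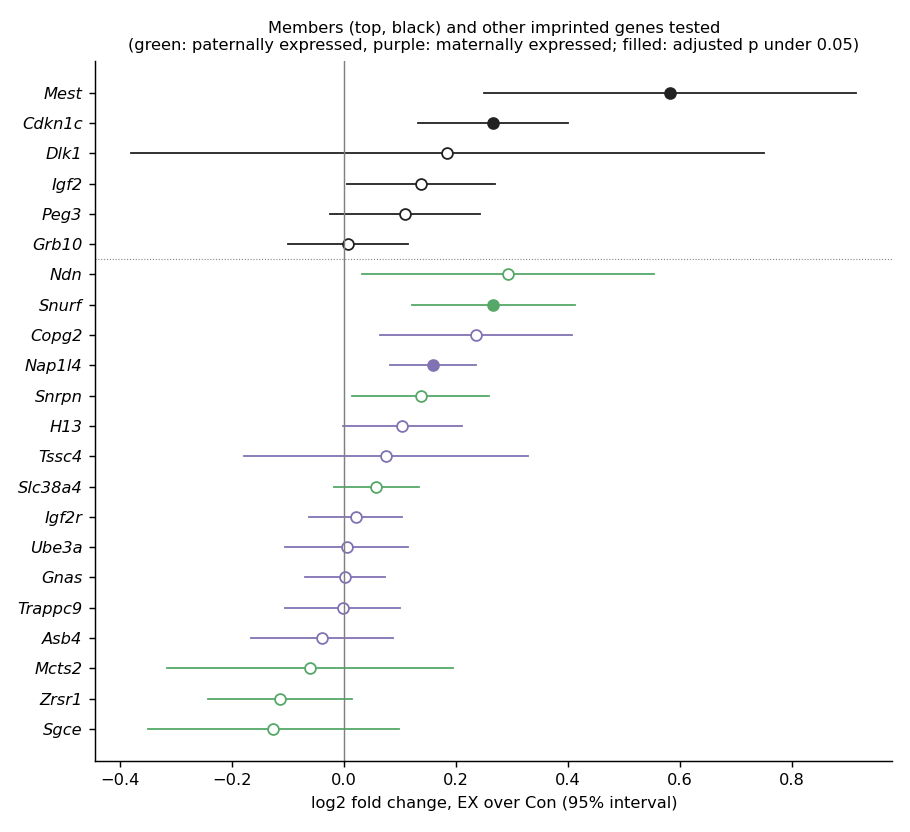
Log2 fold change of EX over Con with its 95% interval for the 6 members (top, black) and for the 16 other genes listed as imprinted above the filter. Green marks genes listed as paternally expressed and purple those listed as maternally expressed. Filled points have an adjusted p-value under 0.05. Mest at 0.58, Cdkn1c at 0.27, Snurf at 0.27 and Nap1l4 at 0.16 are the filled points, and the interval of Dlk1 is the widest.

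Other genes listed as imprinted in mouse tissues were taken for comparison. They are grouped by the copy named for any tissue, and which copy was expressed in this muscle was not measured. Of 23 further paternally expressed genes, 7 were above the filter, of which 1 passed upwards and 0 downwards, with a median log2 fold change of 0.06. Snurf, which shares a transcript with Snrpn, rose from 17.8 ± 0.248 (SD, n = 3) to 21.4 ± 0.929 CPM (log2 fold change 0.27, adjusted p = 0.00838 in edgeR), but it did not pass with DESeq2 or without EX replicate 2, where the adjusted p reached up to 0.0641. Its counts and those of Snrpn were not whole in every library, so the division of reads between them is uncertain, and Snrpn itself had a log2 fold change of 0.14 (adjusted p = 0.116). Of 18 further maternally expressed genes, 9 were above the filter, of which 1 passed upwards and 0 downwards, with a median of 0.02. Nap1l4, a histone chaperone gene in the same imprinted region as Cdkn1c, rose from 207.4 ± 4.89 to 231.6 ± 1.56 CPM (log2 fold change 0.16, adjusted p = 0.00302 in edgeR), but it did not pass on the FPKM or TPM scales. Over all genes tested the median was negative on those scales, from -0.0912 to -0.0487. Together 2 of 16 passed, where 17.9% of all genes tested passed in either direction. The 14 that did not pass included Igf2r, the receptor that removes IGF2 from the cell surface (log2 fold change 0.02, adjusted p = 0.778), and Gnas (0.00140, adjusted p = 0.984). Nnat, a paternally expressed gene under the filter, had 0 counts in each Con library and 2, 5 and 2 counts in EX. A count of 0 allows up to 3 counts, so no fold is given, although it passed in the fit without a filter (adjusted p = 0.0427 in edgeR), where 12% of all 16759 genes passed in either direction.

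Genes of the IGF system passed in both directions. The list of 15 held ligands, receptors, substrates and IGF binding proteins, and also the Igf2bp genes, whose proteins bind RNA. Igf2r is counted here and among the imprinted genes above. Of the 15, 11 were above the filter. Of these 11, 3 passed upwards, 2 downwards and 6 not at all, against 17.9% of all genes tested in either direction. Igf1, the related growth factor, had 26.4, 28.7 and 29.4 CPM in Con and 37.9, 32.5 and 34.2 CPM in EX (log2 fold change 0.30, adjusted p = 0.00136 in edgeR), though it did not pass on the FPKM or TPM scales. Over all genes tested the median was negative on those scales, from -0.0912 to -0.0487. Igf1r, the receptor that transmits the signal of both ligands, fell from 30.8 ± 2.28 to 24.0 ± 1.71 CPM (log2 fold change -0.36, adjusted p = 3.9e-04 in edgeR). The receptor substrate Irs2 rose (log2 fold change 0.39, adjusted p = 1.7e-06), and both Irs2 and Igf1r passed in every alternative in which they were tested. Irs1 rose by 0.20 (adjusted p = 6.9e-04), but did not pass on the FPKM or TPM scales, and the binding protein gene Igfbp3 fell by 0.19 (adjusted p = 0.0450) and passed in 8 of 15 alternatives. The insulin receptor gene Insr had a log2 fold change of -0.13 (adjusted p = 0.0590).

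Of 10 listed genes that keep imprints in place, 6 were above the filter, and 1 passed, downwards, against the same 17.9% of all genes tested. Zfp445, which encodes a zinc finger protein that binds methylated imprinted regions, had 104.1, 102.0 and 116.5 CPM in Con and 94.8, 94.5 and 93.6 CPM in EX. All EX values lay below all Con values, and the log2 fold change was -0.19 (adjusted p = 0.00532 in edgeR). Without Con replicate 3 it did not pass (adjusted p = 0.0632). Trim28, Setdb1, Dnmt1, Ctcf and Dnmt3a did not pass, with log2 fold changes from -0.04 to 0.06. Zfp57 itself lay under the filter, at 0.826 CPM in Con and 0.884 CPM in EX. Methylation was not measured.

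The genes most like the members that rose, by the correlation of log2 CPM over the 6 libraries, are given as a description. For Cdkn1c they were Gpx1 (Pearson r = 0.995), Cd248 (0.994) and C4b (0.993), and 463 genes had a correlation above 0.9. For Mest they were Rnf157 (0.999), Mettl21e (0.995) and H2-Aa (0.993), among 382 genes above 0.9. The libraries fall into 2 groups, which the correlations share.

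Other cells of the tissue were followed by their markers as well. Tendon markers passed upwards for 3 of 4 tested, where 9.11% of all genes tested passed upwards and 17.9% in either direction, from a summed level of 163.2 to 178.7 CPM in Con to 237.6 to 254.1 CPM in EX, and macrophage markers for 3 of 4, from 29.7 to 34.0 CPM to 52.6 to 58.9 CPM. Endothelial markers passed downwards for 3 of 5, from 545.6 to 558.0 CPM to 469.0 to 492.7 CPM, and Schwann cell markers for 3 of 4, from 76.0 to 83.4 CPM to 54.9 to 56.3 CPM. Their part in the levels of the members was not tested.

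**Figure D4:**
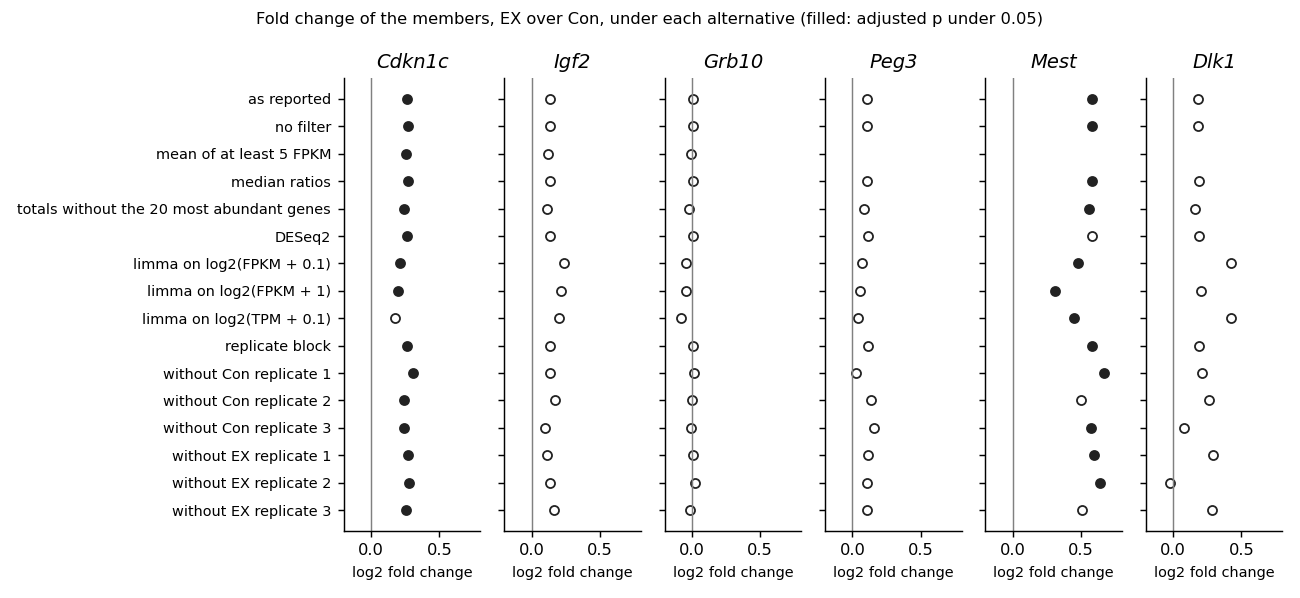
Log2 fold change of EX over Con of each member as reported and under each of the 15 alternatives; filled points have an adjusted p-value under 0.05, and a missing point means that the gene was under the filter of 5 FPKM. Cdkn1c stayed between 0.17 and 0.31 and Mest between 0.31 and 0.67, whereas Grb10 lay on both sides of 0.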

How the data were processed

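Hind leg muscle RNA of 3 Con and 3 EX mice was analysed, with groups taken from the labels. The authors trimmed and filtered 150 bp paired-end reads and deposited, per gene and library, an estimated count with its FPKM and TPM. The paper's methods name HISAT and GRCm39, whereas the submitters' processing notes name cutadapt, featureCounts and GRCm38.p6, and the table has no positions, so the build behind it is uncertain. The 6 columns of group means were not used. The deposited FPKM and TPM values are normalized by the authors, and the estimated counts are not, with 4.18% to 4.44% of values per library not whole.

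Counts were rounded and compared with edgeR 4.0.16 (glmQLFit and glmQLFTest, TMM) in R 4.3.3 on 10883 genes whose mean reached 1 FPKM. Standard errors were derived from the F statistic. Members and list genes under this filter were read from a fit without it. The alternatives were no filter or 5 FPKM, median ratios, totals without the 20 most abundant genes, DESeq2 1.42.0, limma 3.58.1 on log2 of FPKM (pseudocounts 0.1 and 1) or TPM, a replicate block, and each library left out. The planned ratios between members of one cluster need genes that were not analysed here. The labels do not say that replicate numbers pair mice. No source gives a batch. The p-values of edgeR, limma and DESeq2 set the difference between the groups against the spread between samples within a group.

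Members, gene lists and tests were chosen with earlier results of these data known. The rule for named genes was all members, list genes past the threshold, and the 3 genes best correlated with each member that passed. Copg2, Zfp57 and other list genes that did not pass were named after their values were seen. The tests were run on simulated counts with changes of 1.4-fold or 2-fold and 1 fixed spread. There edgeR recovered 85% and 99% of these, and 5.64% of its calls were false. DESeq2 recovered 79% and 97%, with 1.68% of its calls false. Smaller changes, such as that of Cdkn1c, were not simulated.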

Additional observations from a re-analysis of the deposited data

How the results depend on the processing

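Over the 15 alternatives, Mest and Cdkn1c were higher in EX wherever they were tested, and Igf2, Peg3, Dlk1 and Grb10 passed in none of those in which they were tested. With a mean of at least 5 FPKM, 1 member passed instead of 2, because 3 members are under that filter. DESeq2 called 1228 genes instead of 1949, 1 member (Mest at 0.58 was not past the threshold) and 1 other imprinted gene instead of 2. With limma, 1 other imprinted gene passed on each of the FPKM and TPM scales, and on TPM 1 member, since Cdkn1c at 0.17 did not pass. The log2 fold change of Grb10 was negative at 5 FPKM (-0.0077), without the 20 most abundant genes (-0.018) and on log2(FPKM + 0.1) (-0.045). It was also negative on log2(FPKM + 1) (-0.041) and log2(TPM + 0.1) (-0.080), and the cause was not tested. In these settings, in the same order, the median over all genes tested was -0.00167, -0.0255, -0.0559, -0.0487 and -0.0912, against -0.000927 as reported. With each library left out, members past the threshold ranged from 1 to 2, other imprinted genes from 1 to 3, all genes from 1344 to 1857, Mest from 0.50 to 0.67, Grb10 from -0.011 to 0.020 and Dlk1 from -0.023 to 0.29. Genes higher and lower in EX numbered 991 and 958 as reported, 768 and 1269 without the 20 most abundant genes, 411 and 1037 on log2(FPKM + 0.1) and 340 and 1684 on log2(TPM + 0.1). Other imprinted genes past the threshold numbered 3 without a filter, with median ratios and with the replicate block. With the replicate block, 1782 genes and 2 members passed. Deviations of same-numbered libraries from their group means had correlations of -0.101, -0.0579 and -0.165. With 3 libraries per group, these values cannot show whether same-numbered mice were paired. Depth limits Dlk1 most, and Mest next.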
